A study of Mus musculus with 9 samples.

Results

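Aminoacyl-tRNA synthetases join each amino acid to its transfer RNA, and their transcripts were followed here in BV2 cells, an immortalised mouse microglial line. The 37 genes were taken by symbol from a list of 21 cytosolic and 16 mitochondrial enzymes, and all 37 were found among the 21951 genes of the deposited count table. All 37 also passed the filter on low counts, with 11295 genes tested in all. The cells, of wild-type genotype, formed 3 groups of 3 libraries each. Control cells were given the vehicle alone, a cyclodextrin (HP-β-CD) at 20%. For the irradiated group the vehicle was followed after 30 min by X-rays at 10 Gy. In the triol-treated group 10 µM of a steroid (5α-androst-3β, 5α, 6β-triol) took the place of the vehicle before the same dose. No label names a vehicle for the triol-treated cells, and for 2 of the 3 triol libraries the treatment label places the last hydroxyl at another position than the title does. No unirradiated cells were given triol, and how long after the X-rays RNA was taken is not stated in the labels. Nor do they say that replicates were separate cultures, and the p-values then reflect the spread of these libraries alone, which may be technical. In bulk RNA, fewer cells of a kind and less RNA per cell cannot be told apart.

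A synthetase charges its tRNA at the expense of ATP, and the charged tRNA is carried to the ribosome by an elongation factor. Cytosol and mitochondria translate separately, and most amino acids have a nuclear gene for each compartment, the mitochondrial one usually marked by a 2 in the symbol. Gars and Kars, the glycyl and lysyl enzymes, are exceptions that serve both compartments from the same gene. Several cytosolic enzymes sit together in a multisynthetase complex held by the scaffold proteins AIMP1, AIMP2 and EEF1E1. Uncharged tRNA activates the kinase GCN2, which leads to translation of the transcription factor ATF4, and many cytosolic synthetase genes are among the genes that ATF4 is known to raise. Wars, the cytosolic tryptophanyl enzyme, is also known as a gene induced by interferon-gamma.

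Total counts were 13879062 to 18944051 per library. The microglial line was checked with 11 marker genes, all of them detected. Levels are given as CPM, a gene's count scaled to a common library size after edgeR's TMM normalisation. Summed over these markers, control libraries had 1875 to 1964 CPM, irradiated ones 1382 to 1426 and triol-treated ones 1394 to 1431. Against control cells 8 of the 11 were lower after irradiation (edgeR adjusted p under 0.05), beside 22.2% of all tested genes, with a median log2 fold change of −0.415. In triol-treated cells 9 were lower than in control cells, beside 21.7%. P2ry12 and Tmem119, which mark homeostatic microglia, were near 1 CPM. Over 10 hepatocyte genes the summed level of the control libraries was 5.02 to 6.70 CPM. That of irradiated ones was 3.99 to 6.57 and that of triol-treated ones 11.3 to 14.4. Only 4 such genes could be tested. With irradiated cells as reference, 3 of the 4 passed as raised under triol (edgeR adjusted p under 0.05), beside 0.0974% of all tested genes. The log2 fold changes of the 4 ran from 0.119 to 5.65, with a median of 3.26, beside 0.00 over all genes. With control cells as reference 3 of the 4 passed as well, beside 21.5% of all genes, with a median of 3.18. Over 5 astrocyte genes the control libraries had 0.326 to 0.866 CPM, the irradiated ones 1.96 to 2.07 and the triol-treated ones 1.502 to 2.16. The 1 such gene that could be tested, Slc1a2, a glutamate transporter gene, was higher after irradiation (log2 1.63, edgeR adjusted p = 6.1e-04), and Aqp4 was at 0 in every library. Over 5 neuronal genes the highest library had 1.195 CPM, and over 5 oligodendrocyte genes the groups overlapped, between 34.5 and 45.2 CPM. Whether any of these differences has a part in the synthetase values was not tested.

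Letters of the amino acid response element, the DNA sequence read by ATF4 with its C/EBP partners, were found near the start of 3 members, all cytosolic, of which Gars and Iars are shown. RefSeq windows on GRCm38.p6, from 250 bases before to 50 after a transcript start, were held for 28 of the 37 genes and not for Cars, Hars, Hars2, Lars, Nars, Pars2, Rars, Vars and Wars. The letters TGATGNAAT were searched on both strands and were present in 0.965% of all 32851 windows. The stretches around the match are shown because these genes can be set beside Atf4. Capitals mark the match, here as it reads from the opposite strand. They lie at chr6:55037960-55037988 and chr13:49682126-49682154, both on the plus strand.
Gars: tggctgcgctATTTCATCAtgcaccgggc
Iars: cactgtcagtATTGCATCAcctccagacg
The match begins 31 bases before the start of Gars and 6 past that of Iars. Of the interferon-linked motifs, the core of the interferon-stimulated response element (TTTC, any 2 bases, TTTC, on either strand) was found for Qars alone among the 28 genes, against 3.44% of all windows. The letters TTCNNNGAA, a gamma-activated site that reads alike on both strands, were found for 3 of the 28 genes, Kars and Nars2 among them, against 8.3% of all windows. A match is a run of letters and no evidence of binding.

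Levels between genes were compared per length, as CPM per kb of the principal transcript of GENCODE M21, in the control libraries. Most cytosolic enzymes stood above the mitochondrial ones. The median level was 71.6 CPM per kb over the 21 cytosolic genes and 8.31 over the 16 mitochondrial genes, a ratio of 8.61. The first 19 places were all cytosolic. They were led by Nars, the asparaginyl enzyme, at 172 ± 4.98 CPM per kb (mean ± SD, n = 3) and Rars, the arginyl enzyme, at 167 ± 2.04, whose ranges overlapped. Eprs, which joins the glutamyl and prolyl enzymes in a single protein, followed at 119 ± 1.64. Wars stood 11th in the order of levels at 71.6 ± 3.31, within the spread of Dars and Vars. Tars2 (33.3 ± 0.781) and Iars2 (32.9 ± 1.15) were the highest mitochondrial genes and did not differ beyond their spread. The lowest mitochondrial gene was Ears2, the glutamyl enzyme, at 3.38 ± 0.365, and the lowest of all was the cytosolic Tarsl2, a second threonyl enzyme, at 1.63 ± 0.146. Of 36 neighbouring places in this order, 17 had overlapping libraries. The value of Mars2 (3.60) was divided by a principal transcript of 11294 bases, the longest of the 37.

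**Figure D1:**
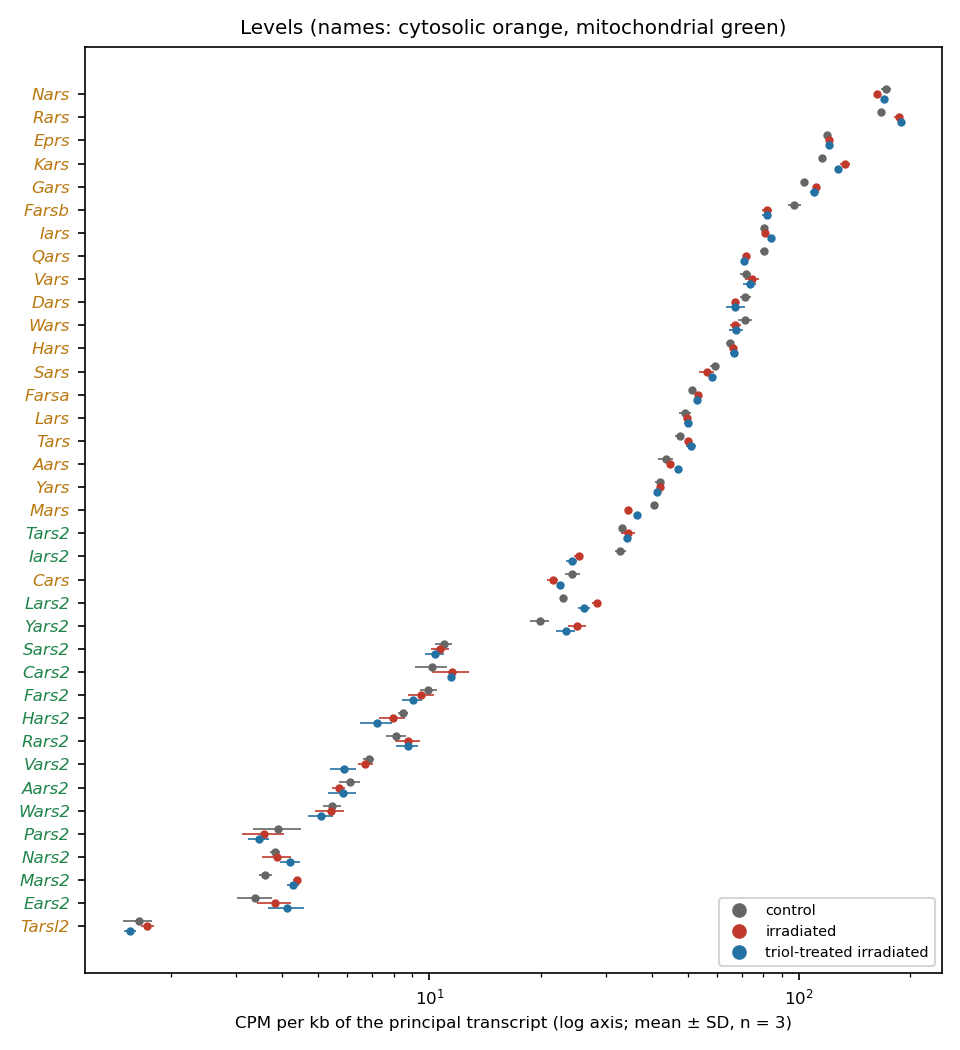
Level of the 37 synthetase genes in CPM per kb of the principal transcript (log axis), as mean ± SD over 3 libraries for control (grey), irradiated (red) and triol-treated irradiated (blue) cells, ordered by the control level. The 19 highest genes are cytosolic, and for most genes the 3 groups lie within a small fraction of the range between genes.

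The first comparison set irradiated against control cells. The synthetases moved in both directions. By the quasi-likelihood test of edgeR with Benjamini-Hochberg adjustment over all tested genes and a threshold of 0.05, 6 of 37 members rose and 6 fell, or 32.4%, beside 44.3% of all tested genes (22.1% higher and 22.2% lower). For 7 members every irradiated library was above every control and for 7 every one was below, beside 25.2% and 25.5% of all genes. An unadjusted p under 0.05 was found for 16 members, beside 50.6% of all genes. The median log2 fold change was 0.02, beside 0.01 over all genes. The median size of the change, regardless of sign, was 0.09, beside 0.15 over all genes. No member reached a size of 0.5, which 10.8% of all genes did. The largest rise was that of Yars2 (0.33) and the largest fall that of Iars2 (−0.37).

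**Figure D2:**
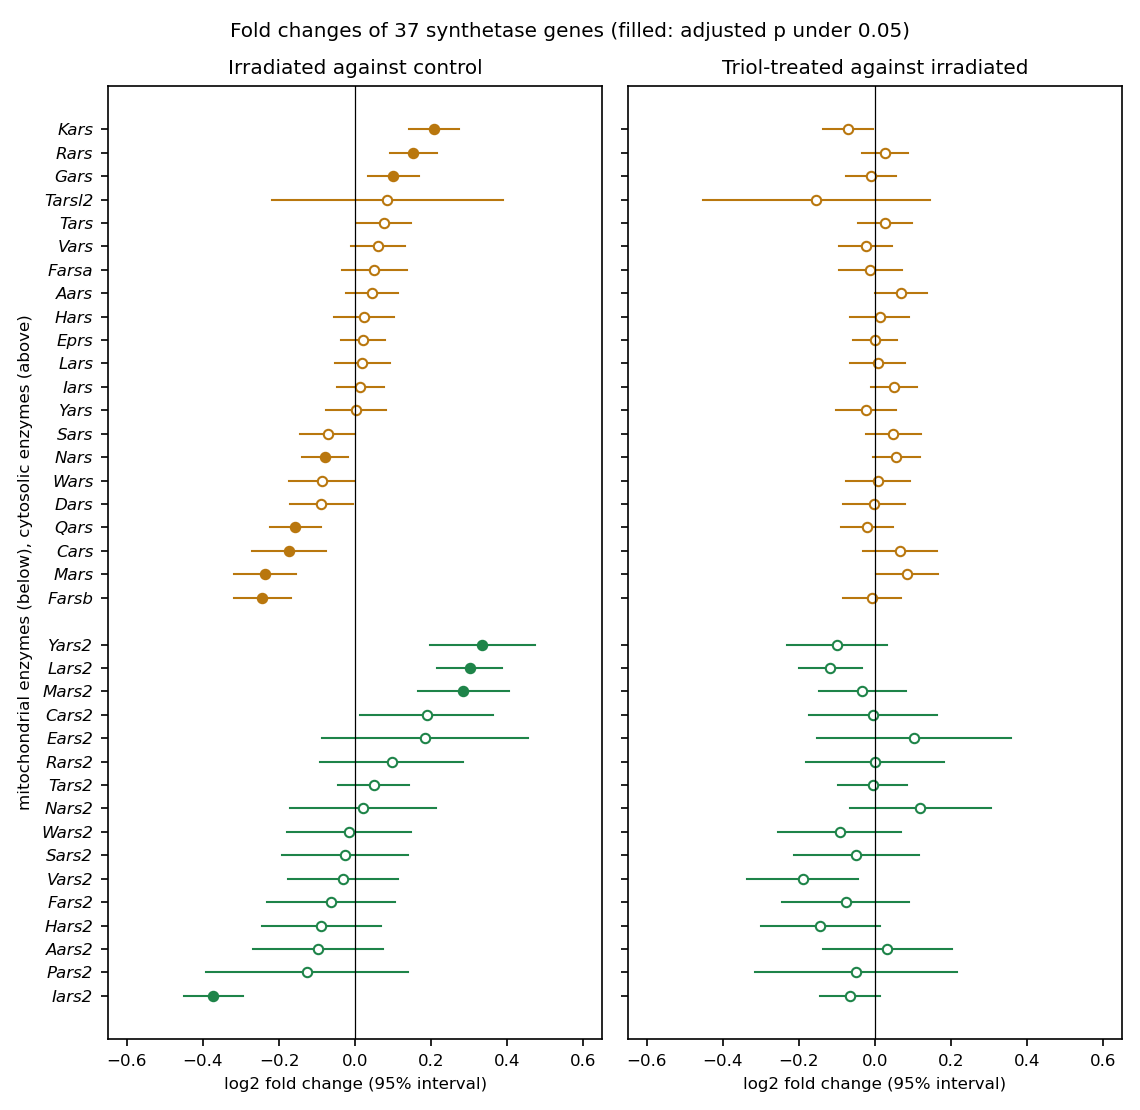
Log2 fold change with its 95% interval for each of the 37 genes in irradiated against control cells (left) and in triol-treated against irradiated cells (right), cytosolic genes in orange above and mitochondrial genes in green below. Filled points passed an adjusted p of 0.05: 12 genes on the left, 6 to each side of 0, and none on the right.

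Added over all 37 genes, control libraries had 5274 to 5275 CPM, irradiated ones 5269 to 5310 and triol-treated ones 5274 to 5339. The cytosolic sum was 4642 to 4649, 4641 to 4680 and 4676 to 4746 CPM in the same order. The mitochondrial sum was 626 to 633, 622 to 635 and 593 to 617 CPM. Control and irradiated libraries overlapped in all 3 sums. The triol-treated libraries all lay below the others in the mitochondrial sum, with a mean of 95.6% of the control mean. This sum averaged 630 CPM for controls, 629 after X-rays alone and 603 after triol and X-rays. Iars2 by itself averaged 180, 139 and 133 CPM. From controls to either irradiated group Iars2 fell by more CPM than the sum, so the other mitochondrial genes together were not lower. From X-rays alone to triol, Iars2 fell by less than the sum. No test was made of a sum.

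**Figure D3:**
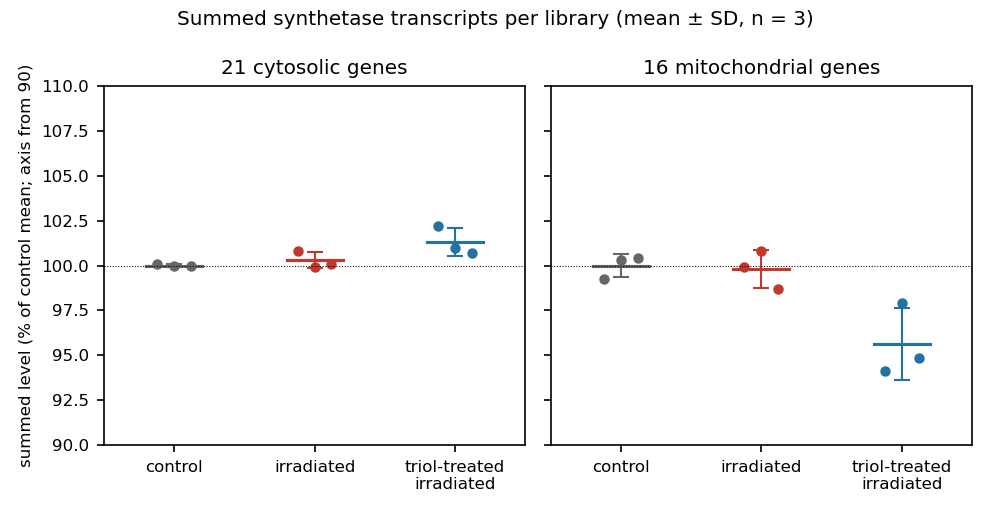
Summed level of the 21 cytosolic (left) and 16 mitochondrial (right) synthetase genes in each library as percent of the control mean, with mean ± SD over 3 libraries, on an axis from 90%. Irradiated libraries lie between 98.7% and 100.8%, and triol-treated libraries between 100.7% and 102.2% for cytosolic and between 94.1% and 97.9% for mitochondrial genes.

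Of the 21 cytosolic genes 3 rose, 5 fell and 13 did not pass. The share called was 38.1%, beside 44.3% of all tested genes. Kars, the lysyl enzyme of cytosol and mitochondria, on chromosome 8 from 111993443 to 112011323, had 230, 234 and 233 CPM in control, 265, 262 and 277 in irradiated and 258, 252 and 257 in triol-treated libraries. All libraries of irradiated cells lay above all controls, and the log2 fold change was 0.21 (SE 0.03, edgeR adjusted p = 1.7e-06). Rars had 356, 348 and 354 CPM in control, 402, 394 and 381 in irradiated and 402, 401 and 396 in triol-treated libraries. It rose by 0.15 (SE 0.03, adjusted p = 6.7e-05), again without overlap. Gars had 252, 245 and 241 CPM in control, 264, 263 and 265 in irradiated and 271, 259 and 257 in triol-treated libraries. Its rise of 0.10 (SE 0.03, adjusted p = 0.012) was the smallest of the 3, and without control replicate 3 it was 0.08 with an adjusted p of 0.064.

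The largest falls among cytosolic enzymes were those of a phenylalanyl subunit and of the methionyl enzyme. Farsb, which encodes the beta subunit of phenylalanyl-tRNA synthetase, on chromosome 1 from 78417975 to 78488897, had 191, 206 and 196 CPM in control, 171, 170 and 161 in irradiated and 172, 163 and 164 in triol-treated libraries. It fell by 0.24 on the log2 scale (SE 0.04, adjusted p = 7.9e-07), and the groups did not overlap. Mars had 116, 121 and 120 CPM in control, 102, 102 and 98.9 in irradiated and 108, 105 and 109 in triol-treated libraries. Its fall of −0.24 (SE 0.04, adjusted p = 6.9e-06) also separated all libraries of both groups.

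Cars, Qars and Nars fell less. Cars, the cysteinyl enzyme, had 81.2, 74.3 and 80.1 CPM in control, 72.1, 68.5 and 67.9 in irradiated and 71.9, 73.4 and 72.8 in triol-treated libraries (log2 −0.17, SE 0.05, adjusted p = 0.0030). Qars, the glutaminyl enzyme, had 229, 225 and 220 CPM in control, 202, 203 and 200 in irradiated and 200, 196 and 201 in triol-treated libraries (log2 −0.16, SE 0.03, adjusted p = 1.8e-04). For both genes every irradiated library lay below every control. Nars had 462, 467 and 488 CPM in control, 457, 441 and 443 in irradiated and 460, 473 and 463 in triol-treated libraries. Its change of −0.08 (SE 0.03, adjusted p = 0.033) was the least firm: the call was lost with upper quartile scaling (adjusted p = 0.19), with only the 2 groups fitted (0.060) and without control replicate 3 (0.12), irradiated replicate 2 (0.087) or irradiated replicate 3 (0.087).

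The partner subunit of Farsb is set beside it here as a description, the pair having been chosen with both values known. Farsa, the alpha subunit that pairs with Farsb in the same enzyme, had 93.8, 92.8 and 95.3 CPM in control and 98.4, 98.5 and 95.1 in irradiated libraries (log2 0.05, 95% interval −0.03 to 0.14, adjusted p = 0.35). The log2 ratio of Farsb to Farsa was 1.02, 1.15 and 1.04 in control, 0.79, 0.78 and 0.76 in irradiated and 0.84, 0.74 and 0.78 in triol-treated libraries. Every irradiated library was below every control, by 0.29 on average. Of the Farsb exonic bases 9.47% also belong to Sgpp2 on the other strand, a gene with 2.0 CPM in control and 3.11 in irradiated libraries.

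**Figure D4:**
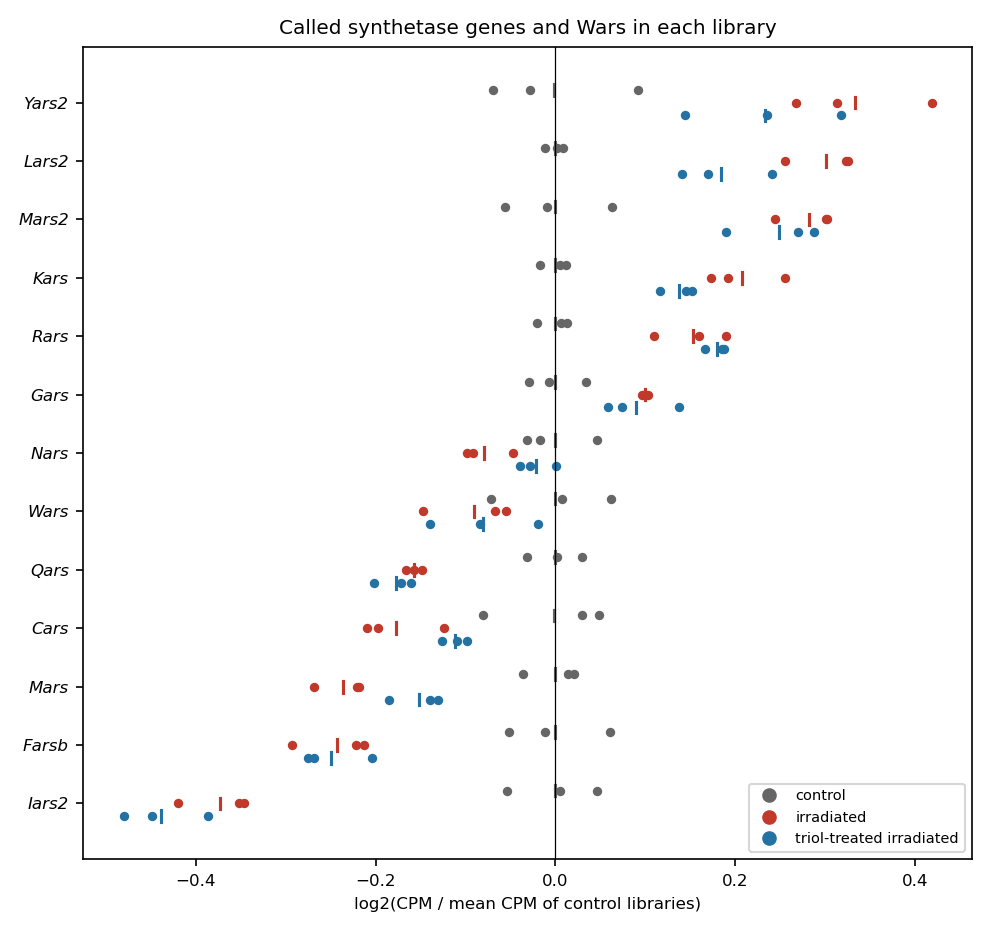
Log2 ratio of each library's CPM to the mean of the control libraries for the 12 synthetase genes called in irradiated against control cells and for Wars (points: libraries, bars: means of 3 libraries), in control (grey), irradiated (red) and triol-treated irradiated (blue) cells. Irradiated and control points separate for all 12 called genes and overlap for Wars.

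The other 13 cytosolic genes lay between −0.09 (Dars, the aspartyl enzyme) and 0.08 (Tarsl2). For the most abundant of these the intervals were narrow. The value of Eprs was 0.02 (95% interval −0.04 to 0.08) and that of Iars, the isoleucyl enzyme, 0.01 (−0.05 to 0.08). For Tarsl2, with 5.21 ± 0.467 CPM in control libraries, the interval ran from −0.22 to 0.39. Upper quartile scaling, which moved the median of all genes from 0.01 to 0.04, called 5 cytosolic genes up and 4 down, with Tars and Vars gained and Nars lost.

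Wars was followed as the interferon-inducible member. Located on chromosome 12 from 108860030 to 108894174, it had 136, 131 and 124 CPM in control, 126, 118 and 125 in irradiated and 123, 119 and 129 in triol-treated libraries. The groups overlapped. The log2 fold change by radiation was −0.09 (SE 0.04, 95% interval −0.17 to −0.00, adjusted p = 0.087), and without control replicate 3 it was −0.13 and passed as a fall (adjusted p = 0.018). Over the 12 alternative settings it stayed between −0.13 and −0.06. Wars2, its mitochondrial counterpart, had a value of −0.02 (95% interval −0.18 to 0.15).

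Interferon-induced genes rose in the same libraries. All 18 genes of a list of such genes rose, beside 22.1% of all tested genes. Their median log2 fold change was 1.54, beside 0.01 over all genes. The list was chosen with earlier results of these data known, so its uniform rise is a description only. Irf1, a factor with binding sites in many interferon-gamma targets, rose by 0.75 (SE 0.08). The largest rises were those of Ifit1 (3.08), Mx1 (2.89), Rsad2 (2.83) and Isg15 (2.77), antiviral effectors. The smallest was that of B2m, the light chain of class I histocompatibility molecules, at 0.30 (95% interval 0.24 to 0.37). The upper end of the interval for Wars lay below the lower end of this one. That too is a description only, since the list was chosen with results known and all its genes rose.

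**Figure D5:**
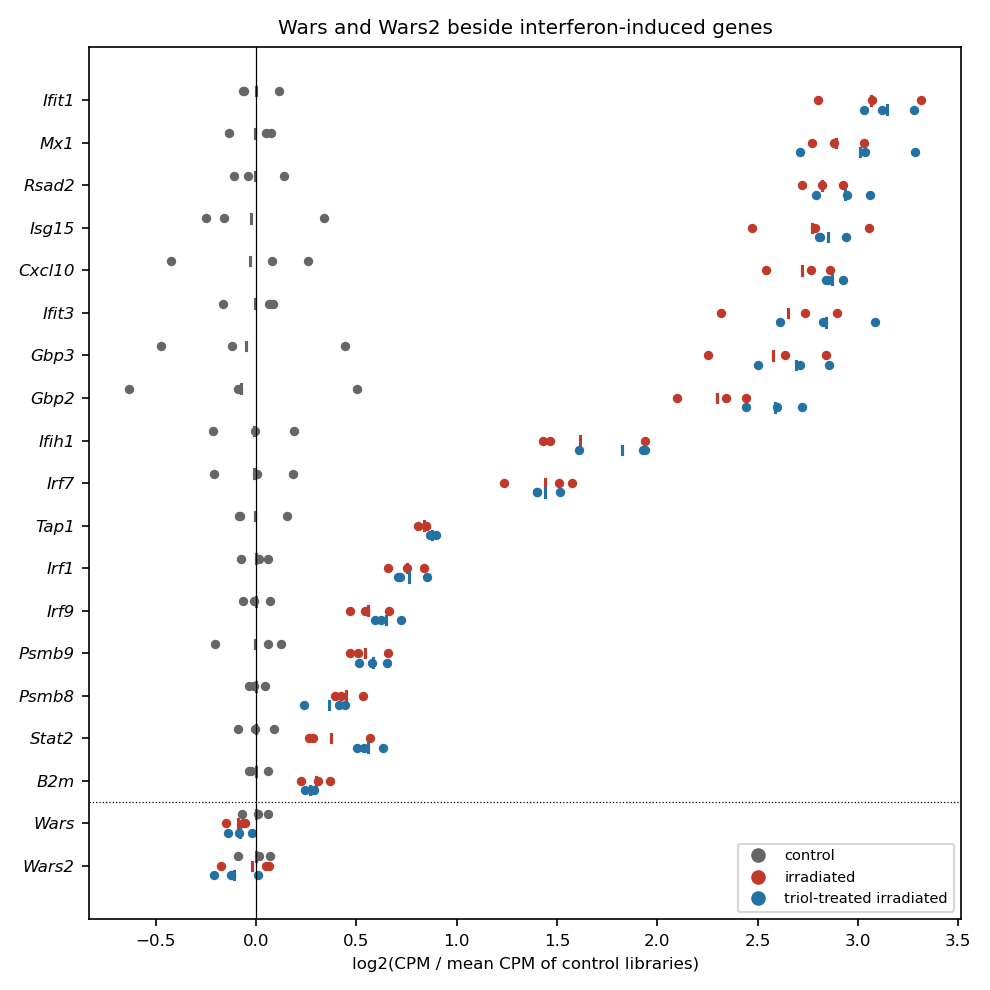
Log2 ratio of each library's CPM to the mean of the control libraries for Wars, Wars2 and the interferon-induced genes of the list except 1, with libraries as points and means of 3 libraries as bars. The plotted interferon-induced genes lie above 0 in all irradiated libraries, with mean rises from 0.30 (B2m) to 3.08 (Ifit1), whereas the Wars points lie around or below 0.

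Of the 16 mitochondrial genes 3 rose, 1 fell and 12 did not pass. The share called was 25%, below the 44.3% of all tested genes. The 4 that passed had larger changes than any cytosolic member. Iars2, the mitochondrial isoleucyl enzyme, on chromosome 1 from 185284726 to 185329396, had 173, 186 and 181 CPM in control, 134, 141 and 141 in irradiated and 138, 132 and 129 in triol-treated libraries. It fell by 0.37 on the log2 scale, or 22.8% (SE 0.04, adjusted p = 1.1e-10), with no overlap between control and irradiated libraries. Of the Iars2 exonic bases 22.9%, and of its principal transcript 37.2%, also belong to Rab3gap2 on the other strand, and reads of the 2 genes cannot be told apart there without strand. Rab3gap2, which encodes a subunit of a regulator of Rab GTPases, had more reads than Iars2, with a mean of 292 CPM in control and 253 in irradiated libraries. It fell by 0.21 (SE 0.03), and its part in the value of Iars2 was not tested.

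Yars2, Lars2 and Mars2 rose. Yars2, the mitochondrial tyrosyl enzyme on chromosome 16, had 30.8, 29.9 and 33.4 CPM in control, 37.8, 41.9 and 39.0 in irradiated and 36.9, 39.1 and 34.7 in triol-treated libraries (log2 0.33, SE 0.07, adjusted p = 8.5e-05). Lars2, the mitochondrial leucyl enzyme on chromosome 9, had 89.9, 90.3 and 89.1 CPM in control, 113, 112 and 107 in irradiated and 98.9, 106 and 101 in triol-treated libraries (log2 0.30, SE 0.04, adjusted p = 1.6e-07). Mars2, the mitochondrial methionyl enzyme on chromosome 1, had 42.4, 40.4 and 39.1 CPM in control, 50.1, 48.1 and 50.1 in irradiated and 46.3, 49.6 and 49.0 in triol-treated libraries (log2 0.28, SE 0.06, adjusted p = 1.1e-04). All irradiated libraries lay above all controls for each of the 3 genes, a rise of 21.8% to 26.1%.

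The 12 others lay between −0.13 (Pars2, the prolyl enzyme) and 0.19 (Cars2). Cars2, the cysteinyl enzyme, had an adjusted p of 0.074 and was called with upper quartile scaling and without control replicate 1 or irradiated replicate 2. The precision differed between the compartments, since the median SE was 0.04 for cytosolic and 0.08 for mitochondrial genes. The fewer calls among mitochondrial genes, 25% against 38.1%, were not tested as a difference. On counts simulated for this comparison 16% of 1.1-fold and 70% of 1.2-fold changes were recovered. There only 50 of 11205 genes were changed at each fold size, and all genes shared 1 dispersion. In the real comparison 44.3% of genes were called, which makes the adjusted threshold less strict. The recovered shares therefore do not carry over to these members.

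The compartments were compared directly for 13 pairs of genes whose symbols differ only by the final 2. Phenylalanine, glutamate and proline also have genes in both lists, under other symbols, and were not paired. The log2 ratio of Mars to Mars2 was 1.45, 1.58 and 1.62 in control, 1.03, 1.09 and 0.98 in irradiated and 1.22, 1.08 and 1.15 in triol-treated libraries, the cytosolic gene having fallen and the mitochondrial gene risen. That of Iars to Iars2 went the other way, from 0.98 ± 0.0542 to 1.37 ± 0.0595 (n = 3). The ratios of Cars to Cars2, Lars to Lars2 and Yars to Yars2 were lower in every irradiated than in every control library, by 0.36, 0.28 and 0.33. These 5 pairs reached p = 0.10 in the exact two-sided permutation test, the smallest it can give here, and an adjusted p of 0.26 over the 13 pairs. The other 8 pairs, Wars and Wars2 among them, overlapped. No share over other gene pairs was computed to set beside these counts. Among all single tested genes, irradiated libraries lay wholly above controls for 25.2% and wholly below for 25.5%.

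Each structural class held changes in both directions. Synthetases fall into 2 unrelated classes by the fold of their catalytic domain. Of 18 class I genes 4 rose and 4 fell, and of 18 class II genes 2 rose and 2 fell, with Eprs holding a domain of each class. The called shares were 44.4% and 22.2%, beside 44.3% of all genes. Among 8 enzymes of the multisynthetase complex Kars and Rars rose, Mars and Qars fell, and Dars, Eprs, Iars and Lars did not pass. That is a called share of 50%, beside 44.3% of all genes. Of the scaffolds, Eef1e1 rose by 0.28 (SE 0.06, adjusted p = 8.7e-05), while Aimp1 had −0.07 and Aimp2 0.01, with adjusted p of 0.28 and 0.92. Over a list of 15 scaffolds and cytosolic partners of tRNA 4 rose and 1 fell, a share of 33.3% beside 44.3% of all genes. The fall was that of Eef1a1, the elongation factor that delivers charged tRNA (−0.12), and Eef1b2, its exchange factor, rose by 0.15. Trnt1, which adds the CCA end to tRNA, rose by 0.20, and Elac2, which trims its 3′ end, by 0.18. In the list of 11 mitochondrial partners 2 rose and 0 fell, or 18.2%, beside the same 44.3%. None of these differences in share was tested. These were Gfm1, a mitochondrial elongation factor (0.17), and Gatb (0.16, adjusted p = 0.046), a subunit of the amidotransferase that makes glutaminyl-tRNA from the product of Ears2.

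Genes of the ATF4 pathway moved in both directions. Of 31 tested members of 33, 9 rose and 11 fell, or 64.5% called beside 44.3% of all genes, with a median of −0.06, beside 0.01 over all genes. Atf4 itself had a log2 fold change of −0.10 (SE 0.03, adjusted p = 0.016). The largest changes were rises of Stc2, a secreted glycoprotein gene (0.76), Eif2ak2, the interferon-induced kinase PKR (0.62), Slc7a11, the cystine transporter gene (0.50), and Ddit3, which encodes CHOP (0.38). The Ddit3 exons overlap 1.99% of the Mars exonic bases on the other strand. Of the 12 synthetase genes known to answer amino acid shortage through ATF4, 1 rose (Gars), 3 fell (Cars, Mars and Nars) and 8 did not pass. The share called was 33.3%, beside 44.3% of all genes, a difference not tested on so short a list, and the median was 0.01 in both. The genes shown above with the response element gave 0.10 for Gars and 0.01 for Iars.

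The second comparison set triol-treated against irradiated cells. In edgeR 0 of 37 members passed, beside 0.106% of all genes (0.0974% higher and 0.00885% lower). An unadjusted p under 0.05 was found for 5 members, beside 7.66% of all genes. Libraries did not overlap for 4 members that were higher and 3 that were lower with triol, beside 7.35% and 5.88% of all genes. DESeq2, which gave an adjusted p to 19 cytosolic and 2 mitochondrial members, and limma-voom also called 0. The smallest unadjusted p values belonged to Lars2, Vars2 and Kars. Lars2, raised by radiation, was lower in all 3 triol-treated than in all irradiated libraries, with a log2 difference of −0.12 (95% interval −0.20 to −0.03, edgeR adjusted p = 0.405). Vars2, the mitochondrial valyl enzyme, had 29.7, 31.1 and 28.3 CPM in irradiated and 24.3, 25.3 and 28.3 in triol-treated libraries (log2 −0.19, 95% interval −0.33 to −0.04, adjusted p = 0.47). Kars had a difference of −0.07 (−0.14 to −0.00, adjusted p = 0.62), and its triol-treated libraries also lay below all irradiated ones. For Wars the difference was 0.01 (−0.08 to 0.09, adjusted p = 0.98), and it changed sign without irradiated replicate 2 or triol replicate 3.

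By direction, 12 of the 16 mitochondrial members had a lower value in triol-treated cells, or 75%, with a median of −0.05, beside 49.2% of all genes and a median of 0.00. Of the cytosolic members 9 of 21, or 42.9%, were lower, with a median of 0.01. The median SE was 0.08 for mitochondrial and 0.04 for cytosolic members. In edgeR an unadjusted p under 0.05 was found for 2 of the 16 and 3 of the 21. Of the 12 synthetase genes known to answer amino acid shortage 10 were higher in triol-treated cells, or 83.3% beside 50.8% of all genes, with a median of 0.04 and 0 called. Their median SE was also 0.04. All members were measured in the same libraries, so their directions are not independent, and direction was not tested.

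The third comparison set triol-treated against control cells, and used the same control libraries as the first. It called 14 of 37 members, 8 up and 6 down, or 37.8%, beside 43.3% of all genes (21.5% higher and 21.7% lower). Libraries did not overlap for 12 members that were higher and 7 that were lower, beside 25.5% and 25.6% of all genes, and 19 members had an unadjusted p under 0.05, beside 49.8%. Among cytosolic genes Kars (0.14), Rars (0.18), Gars (0.09), Aars (0.11, adjusted p = 0.0057) and Tars (0.10, adjusted p = 0.015) were higher, and Farsb (−0.25), Qars (−0.18) and Mars (−0.15) were lower. The call of Gars was lost with no filter on low counts and without control replicate 2, control replicate 3, triol replicate 1 or triol replicate 2, with adjusted p of up to 0.205. Aars lost it without control replicate 3 or triol replicate 2, and Tars without control replicate 2 or triol replicate 1. Cars (−0.11, adjusted p = 0.057) and Nars (−0.02, adjusted p = 0.59), which fell with radiation alone, did not pass here, though their differences between triol-treated and irradiated cells, 0.07 and 0.06, did not pass either. Cars was called lower than in control cells with no filter on low counts (−0.12, adjusted p = 0.037) and without control replicate 2 (−0.155, adjusted p = 0.017).

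Among mitochondrial genes Yars2 (0.23), Mars2 (0.25) and Lars2 (0.18) were higher and Iars2 (−0.44, or 26.2% lower), Hars2 (−0.23, adjusted p = 0.012) and Vars2 (−0.22, adjusted p = 0.011) were lower than in control cells. Hars2, the histidyl enzyme, had 28.9, 27.4 and 28.7 CPM in control, 28.7, 24.4 and 26.5 in irradiated and 21.6, 26.4 and 24.2 in triol-treated libraries. Its triol-treated libraries lay below all controls, and those of Vars2 did as well. Without triol replicate 1 neither Hars2 nor Vars2 was called, and the mitochondrial count fell from 6 to 4. Wars gave −0.08 (95% interval −0.16 to 0.00, adjusted p = 0.12), and passed as lower without control replicate 3 (adjusted p = 0.021) or triol replicate 3 (0.039).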

How the data were processed

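The deposited table holds whole-number read counts per gene, 1 column per library. For trimming, alignment and counting the authors used fastp 0.18.0, FastQC, STAR 2.7.1a and featureCounts of Subread 1.6.3 on GRCm38, per the submitters' processing notes. Their annotation, strand setting and rule for multi-mapping reads are not known here. All 21951 identifiers and symbols were found in GENCODE M21, which gave positions, lengths and overlaps. In 11 members 100 or more bases recurred at 95% identity or more in another gene's transcripts. For 10 the match was exact. In Aars, Cars2, Fars2, Farsb, Hars, Hars2, Iars2 and Tarsl2 it lay in a gene that overlaps the member at the same place in the genome. In Nars2 and Vars2 it lay in an antisense transcript. For Iars 37.4% of the transcript was 96% identical to a processed pseudogene, which the deposited count table does not hold. These values are less certain where reads could belong to either gene. Of the Aars exonic bases 14.3% belong to Exosc6 on the same strand.

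Counts were filtered with filterByExpr, scaled with TMM and tested in edgeR 4.0.16 (R 4.3.3) by quasi-likelihood, in 1 fit of 9 libraries with 6 residual degrees of freedom, two-sided, with Benjamini-Hochberg adjustment over 11295 genes. Fold changes are on the log2 scale with a standard error (SE), and the biological coefficient of variation came to 3.18%. Alternatives were DESeq2 1.42.0, limma-voom (3.58.1), upper quartile scaling, no filter, 2-group fits, a replicate block and leaving out each library. On simulated counts for irradiated against control cells (11205 genes) false calls were 2.74% of calls. Far fewer genes were changed there than were called in the real data. Same-numbered libraries did not deviate together (correlations −0.05 to 0.04), so libraries were not paired. Members and lists were chosen with earlier results of these data known. Given per library are Wars, up to 5 called members a direction and compartment for radiation, and the 3 smallest p for triol, where none was called. From other lists up to 4 called genes with the largest change were named, with Atf4; 1 other gene of that rule and 1 promoter stretch are not reported here. Farsa, Hars2, Irf1, B2m, Aimp1, Aimp2, Eef1a1, the cell type markers named and members given as ends of a range or with a motif were chosen after their values were seen.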

Additional observations from a re-analysis of the deposited data

How the results depend on the processing

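The counts of called synthetase genes stayed within 1.5 times their reported value under every alternative run, in each compartment and comparison. The genes behind a count could change. Without control replicate 3 the cytosolic count for radiation stayed at 8, with Gars and Nars lost and Sars and Wars gained. For triol-treated against control cells it also stayed at 8, with Aars and Gars lost and Dars and Wars gained. The split there went from 5 up and 3 down to 3 up and 5 down. With the replicate block the counts were 8 cytosolic and 4 mitochondrial genes for radiation, 0 and 0 for triol against irradiated cells, and 8 and 6 for triol against control cells, as in the fit without it, and the block changed no call of a gene named per library. Of 9 comparisons of a library with another group, 4 correlated best with the same number. Upper quartile scaling changed the split of mitochondrial calls in triol-treated against control cells from 3 up and 3 down to 5 up and 3 down. With every detected gene kept, the cytosolic split there was 4 and 5. For Wars in triol-treated against irradiated cells the log2 difference ran from −0.0274 to 0.036 on leaving out single libraries, with both signs. In the first comparison 10 of the 12 called members, all but Gars and Nars, passed under all 12 alternatives. Depth limits the lowest genes most: in the first comparison Tarsl2, Ears2 and Pars2 had 95% intervals wider than 0.5 on the log2 scale.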
